A study of Mus musculus with 12 samples.

Results

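Small nucleolar RNAs, Cajal body RNAs and vault RNA were followed in whole lungs of Balb/c mice with different forms of house dust mite asthma. The class holds every gene of the mouse Gene 1.0 ST array whose single platform symbol starts with Snord, Snora, Scarna or Vaultrc. It has 55 of the 19937 genes with a symbol of their own, namely 31 Snord, 20 Snora and 3 Scarna RNAs and the vault RNA Vaultrc5. The class was selected on the log2 intensities of Vaultrc5 and Scarna13 on these arrays, which differed between the groups, so these 2 RNAs are given as values with no test and the counts below cover the other 53. Those 53 were measured on the same arrays, so their counts are not support independent of that choice.

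The series has 12 arrays, 3 in each of 4 groups, and total RNA was measured. Controls received PBS alone into the nose. The eosinophilic group was injected into the peritoneum 3 times, on days 0, 7 and 21, with extract that carried 0.75 development units (DU) of each of 2 mite extracts, Der p and Der f, on 1.5 mg of aluminium hydroxide. This group was then challenged through the nose from day 26 to day 28 at a like dose. The mixed group was given 0.75 DU of each allergen through the nose once a week, 4 times, with no injection and no aluminium hydroxide. The neutrophilic group was treated like the mixed group but at 7.5 DU of each. Sex and age are not in the labels, which number the samples without saying that each is 1 animal, so p-values measure the spread between these samples.

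Box C/D small nucleolar RNAs (Snord) guide fibrillarin to methylate the ribose of chosen rRNA nucleotides, and box H/ACA small nucleolar RNAs (Snora) guide dyskerin to turn uridine into pseudouridine. Cajal body RNAs (Scarna) guide the same reactions on the RNAs of the spliceosome. Vault RNA is a short RNA polymerase III transcript carried by the vault, a large ribonucleoprotein particle of the cytoplasm. Most mouse guide RNAs are cut out of introns of other genes, often genes of ribosomal proteins or of non-coding host RNAs, and a few, such as Snord118 and Snora73, take part in cleaving the rRNA precursor.

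The boxes that name the families are seen in 2 members whose ends overlap an annotated micro RNA hairpin, with letters taken from RefSeq on build GRCm38.p6. The first lies at chr12:105031077-105031141 on the minus strand and covers bases 209 to 273 of the 275 bases of Scarna13, with the ACA box near its end in capitals. The second lies at chr7:45126918-45126945 on the minus strand and covers the first 28 of the 82 bases of Snord33, with the C box in capitals.
Scarna13: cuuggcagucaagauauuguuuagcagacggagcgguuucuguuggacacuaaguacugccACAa
Snord33: agcuugUGAUGAgacaucucccacucau
Scarna13 is one of the RNAs for which the class was picked, and Snord33 is a box C/D guide that lies in the ribosomal protein gene Rpl13a.

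Values are log2 intensities. Vaultrc5 was at 8.28, 7.61 and 8.28 in the controls, at 4.89, 6.74 and 7.01 in the eosinophilic group, at 8.38, 8.93 and 8.76 in the mixed group and at 10.23, 10.06 and 10.21 in the neutrophilic group. No group overlapped another, and the order ran from eosinophilic through control and mixed to neutrophilic. The group means were 8.06 ± 0.38 (SD, n = 3), 6.22 ± 1.15, 8.69 ± 0.28 and 10.17 ± 0.09 in that order of listing, so the neutrophilic mean was 4.31-fold the control mean and the eosinophilic mean 3.58-fold below it. Scarna13, a guide RNA of the Cajal body, was at 9.15, 8.90 and 7.17 in the controls, at 5.84, 6.84 and 6.87 in the eosinophilic group, at 9.06, 9.13 and 9.30 in the mixed group and at 10.22, 9.19 and 9.96 in the neutrophilic group. Its eosinophilic values lay below and its neutrophilic values above all controls, while the mixed arrays overlapped both the controls and the neutrophilic arrays. Control array 3 stood apart from the other controls.

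**Figure D1:**
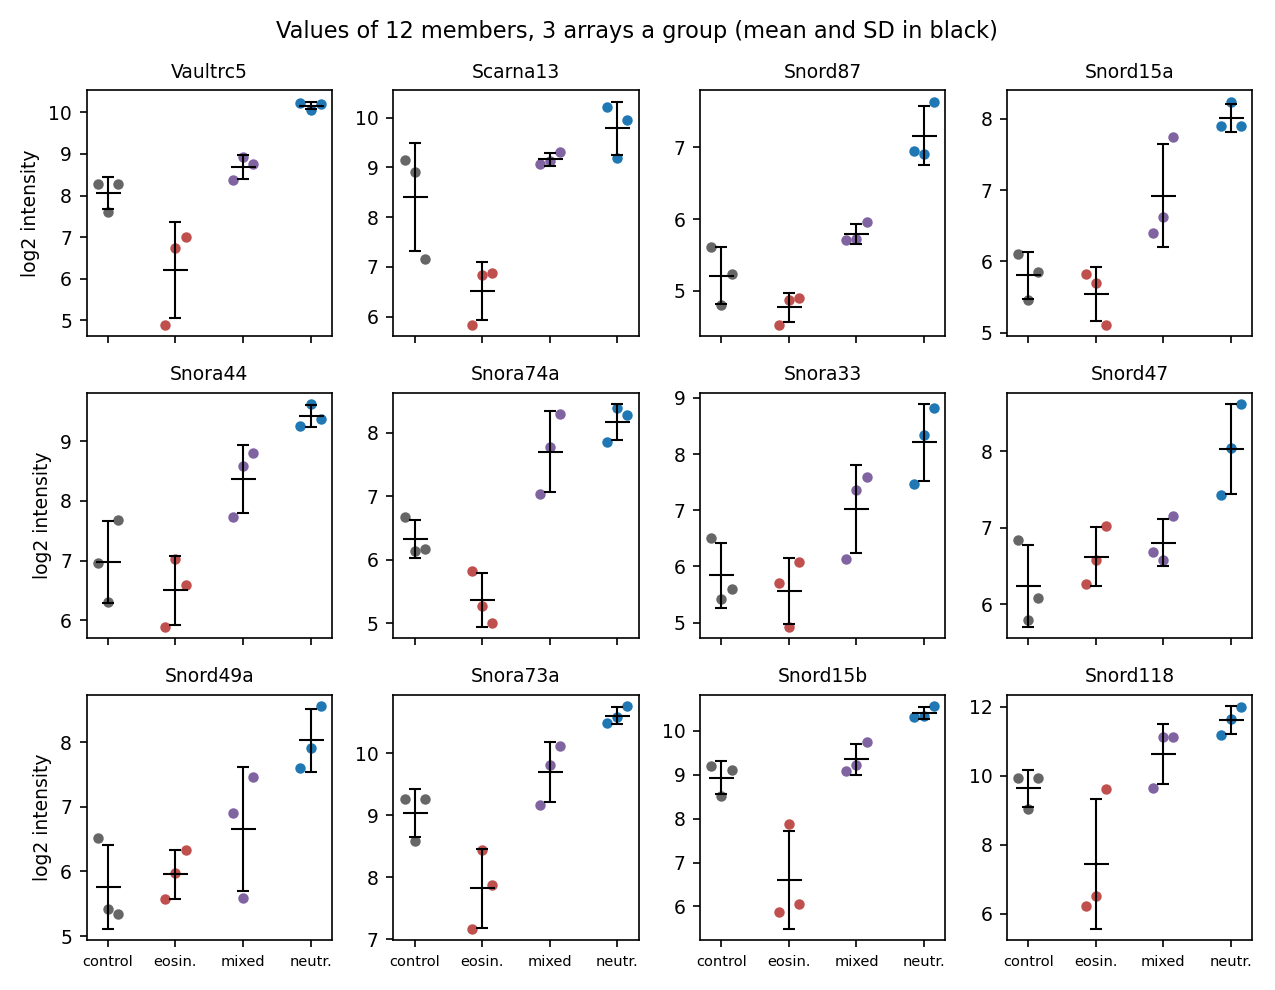
Log2 intensity of 12 members on each array, with 3 coloured points a group (control, eosinophilic, mixed, neutrophilic) and the mean and SD in black. The neutrophilic values of Vaultrc5 sit between 10.06 and 10.23, above every other array, and Snord15b shows its lowest values in the eosinophilic group.

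The arrays did not share one range of values. The SD over all probe sets was 1.77 to 2.04 on 9 arrays, 1.52 on eosinophilic array 9, 1.51 on neutrophilic array 23 and 0.996 on eosinophilic array 7. On eosinophilic array 7 the mean of the 14 lung cell markers was 6.27, against 9.54 to 10.47 on the other 11 arrays. Results that rest on these 3 arrays are therefore also given without them. The mean of the 5 neutrophil markers was 5.98 to 6.85 in the controls, 6.13 to 7.80 in the eosinophilic group, 8.25 to 8.93 in the mixed group and 7.66 to 9.45 in the neutrophilic group, and the mean of the 4 measured eosinophil markers was 4.66 to 4.88 in the controls and 5.57 to 7.18 on the treated arrays. That rise lay mainly in Rnase2a, at 3.42 to 4.51 in the controls and 6.56 to 11.76 on the treated arrays, while Siglecf was at 6.35 to 6.69 and 5.11 to 6.97 and Epx at 4.195 to 4.212 and 3.86 to 5.62. The plasma cell gene Jchain was at 4.95 to 6.81 in the controls, 6.13 to 6.31 in the eosinophilic group, 9.07 to 11.504 in the mixed group and 7.89 to 11.31 in the neutrophilic group. The B cell genes Ms4a1 and Cd79a did not follow it. In the same order of groups Ms4a1 was at 5.95 to 7.52, 5.19 to 5.40, 5.66 to 6.37 and 5.38 to 6.88. Cd79a was at 6.30 to 7.48, 6.47 to 7.08, 6.22 to 7.60 and 6.17 to 8.56. The proliferation gene Mki67 was at 5.56 to 5.76 in the controls and 7.33 to 8.01 in the eosinophilic group. It was at 6.22 to 7.15 in the mixed group and 5.37 to 6.79 in the neutrophilic group. Top2a, in the same order of groups, was at 4.51 to 5.09, 6.14 to 6.97, 4.56 to 6.07 and 4.58 to 5.23. The part of a changed cell makeup in the results below was not tested, and in whole lung fewer cells of a type and less RNA per cell cannot be told apart.

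The median of the 53 members was 6.84, 6.14 and 6.13 on the control arrays, 5.70, 6.50 and 5.56 on the eosinophilic arrays, 7.03, 7.16 and 7.28 on the mixed arrays and 7.47, 8.05 and 8.11 on the neutrophilic arrays. All 3 neutrophilic arrays lay above every other array, and the mixed arrays lay above all controls. A control array could also stand off for the whole class, since 47 members on control array 1 and 6 on control array 2 were above their control mean, beside 53.3% and 49.4% of all genes. On the neutrophilic arrays 51, 51 and 52 of the 53 were above that mean, beside 50.5%, 49.1% and 49% of all genes. The median over all genes stayed close to 5.5 on every array, as the plot of the class level shows.

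**Figure D2:**
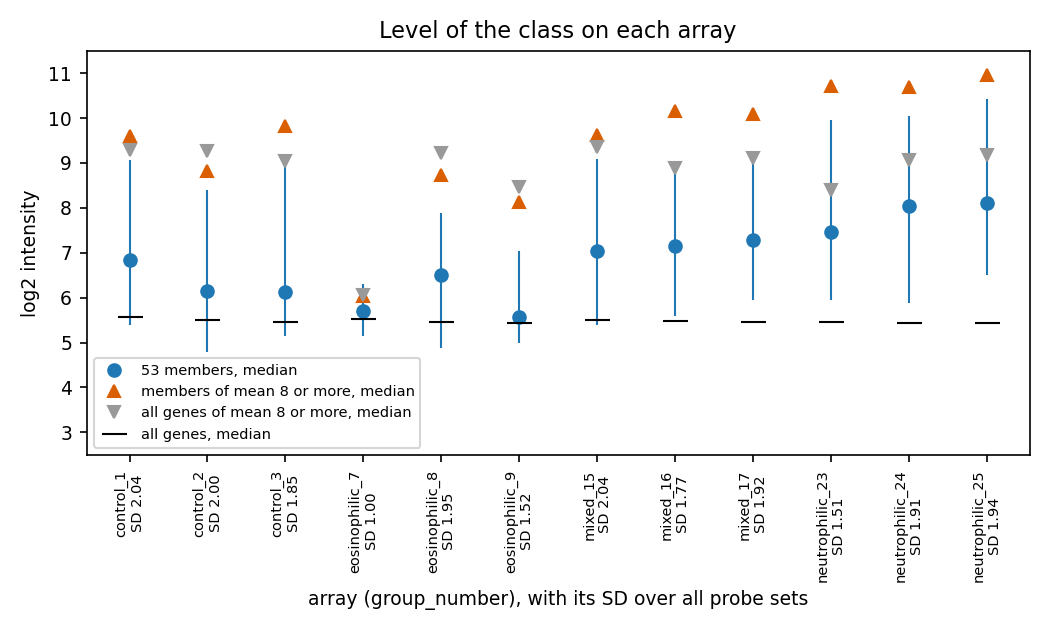
Log2 intensity on each of the 12 arrays, with the SD of the array under its name. Blue points are the median of 53 members with their quartiles, orange triangles the 16 members of mean 8 or more, grey triangles all 1905 genes of mean 8 or more, and black bars all genes. On the neutrophilic arrays the orange triangles lie at 10.69 to 10.96, above the grey ones at 8.39 to 9.19.

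Arrays of like range differed in the level of the class. Eosinophilic array 9 and neutrophilic array 23 had nearly the same SD, and their member medians were 5.56 and 7.47. Of the 53 members, 23 lay below and 12 above all controls on eosinophilic array 9, beside 40.7% and 39.9% of all genes, so that count below is close to the share over all genes. On neutrophilic array 23, 45 lay above and 1 below all controls, beside 41.3% and 40.9% of all genes. The 16 members with a mean of 8 or more, a split made after the values were seen, had a median of 8.14 on the former and 10.71 on the latter, while all genes of that brightness had 8.45 and 8.39.

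On eosinophilic array 7 the members drew together. Snora3 lay 6.23 below its median over the other 11 arrays on the log2 scale (4.85 against 8.72 to 13.20), the farthest of all members, and Snord57, Snord104 and Snora52 had differences of -6.17, -5.79 and -5.74. All 16 bright members lay below their median over the other arrays. Of the 37 dim members 24 also lay below it and 13 above, with Snora2b at 6.81 against 4.03 to 5.08 elsewhere, a difference of 2.52, and Snord61 at a difference of 2.08. The median of bright members on that array was 6.03, that of all bright genes 6.06 and that of dim members 5.54, so hardly any spread between bright and dim members was left. Micro RNA genes, another class of short RNAs, had a median of 5.33 on this array against 3.75 to 4.64 on the others.

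**Figure D3:**
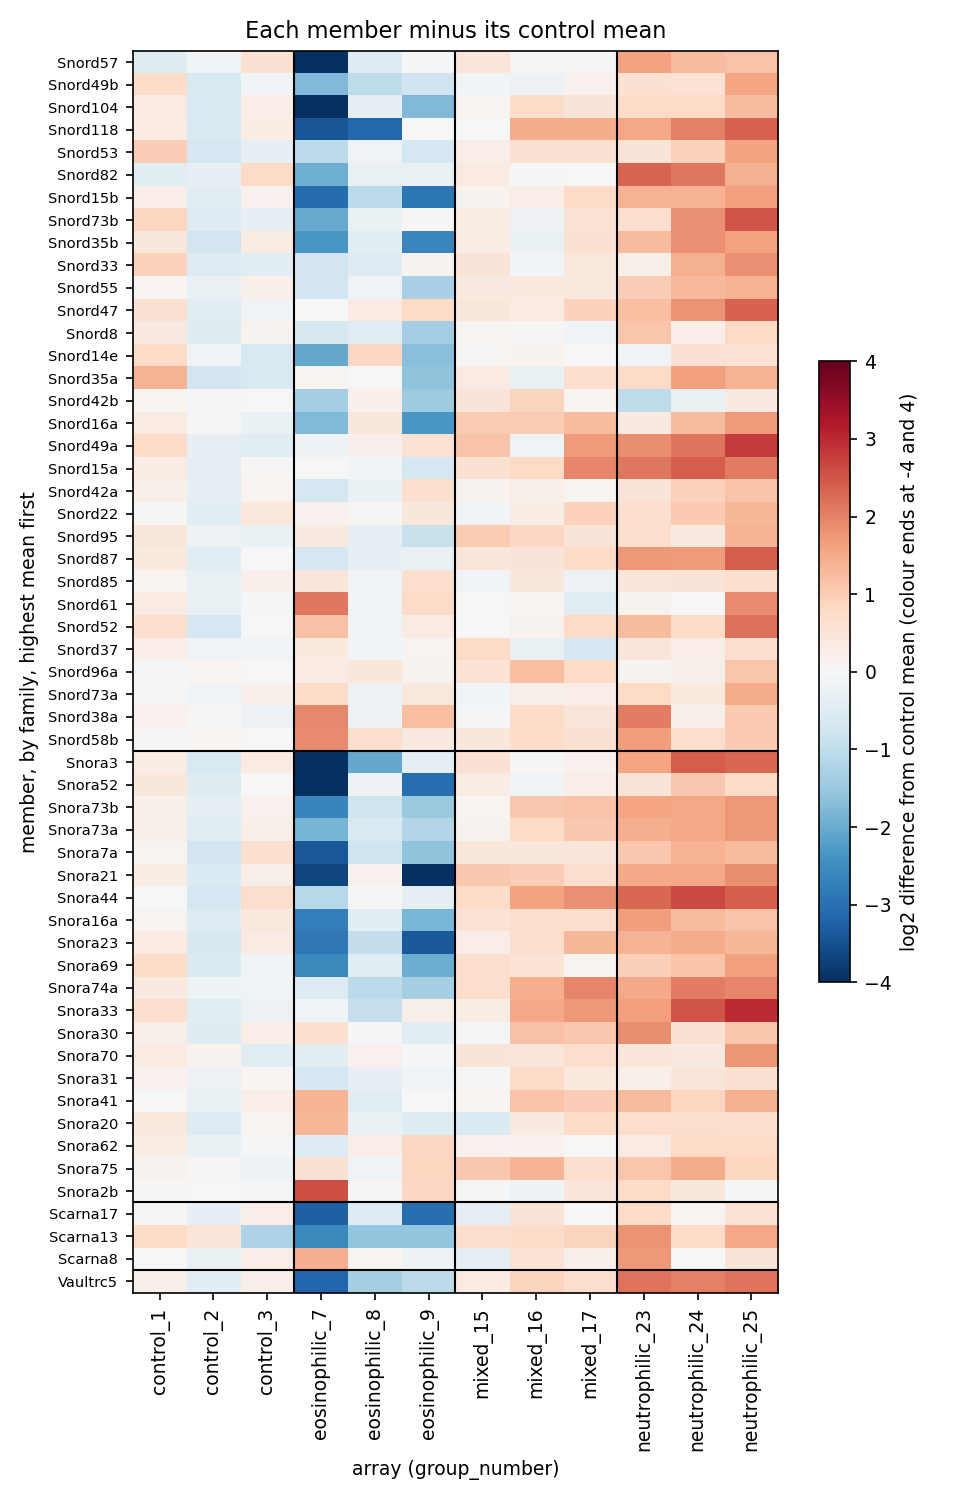
Each of the 55 members (rows, by family, highest mean first) on each array (columns) as the log2 difference from its own control mean. Blue is below and red above that mean, and the colour ends at a difference of 4 either way. The neutrophilic columns are red in nearly every row, and on eosinophilic array 7 the 16 bright members besides Vaultrc5 and Scarna13 are all blue, while 19 of the 37 dim members are red.

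Neutrophilic lungs were compared with control lungs to find which members differed at the high allergen dose. In limma's moderated test with Benjamini-Hochberg adjustment over all 19937 genes, 8 of the 53 members rose and 0 fell, where 0.662% of all genes were called higher and 2.11% in either direction. The 8 were the box C/D guides Snord15a, Snord47, Snord49a and Snord87 and the box H/ACA RNAs Snora33, Snora44, Snora73a and Snora74a. Their log2 differences ran from 1.58 to 2.45.

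Snora44, a pseudouridylation guide, was at 6.96, 6.30 and 7.68 in the controls, at 5.89, 7.02 and 6.58 in the eosinophilic group, at 7.73, 8.58 and 8.80 in the mixed group and at 9.26, 9.63 and 9.38 in the neutrophilic group. Every neutrophilic array lay above every array of the other groups. The difference from control was 2.45 (SE 0.41, adjusted p = 0.013), a 5.45-fold higher level. Snora33, another guide of that family, was at 6.50, 5.41 and 5.60 in the controls and at 7.47, 8.35 and 8.82 in the neutrophilic group, with no overlap, and differed by 2.37 (SE 0.49, adjusted p = 0.029).

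Snord87, a methylation guide, was at 5.60, 4.80 and 5.23 in the controls, at 4.53, 4.87 and 4.90 in the eosinophilic group, at 5.70, 5.72 and 5.95 in the mixed group and at 6.95, 6.90 and 7.64 in the neutrophilic group. It had the smallest adjusted p of the class, with a difference of 1.95 (SE 0.30, adjusted p = 0.0094) or 3.87-fold. Snord15a, a methylation guide for the large rRNA, was at 6.11, 5.46 and 5.85 in the controls, at 6.41, 6.62 and 7.75 in the mixed group and at 7.90, 8.24 and 7.90 in the neutrophilic group. Its difference was 2.21 (SE 0.37, adjusted p = 0.012), or 4.62-fold, and the neutrophilic arrays again lay above all others. Snord49a and Snord47 differed by 2.27 and 1.79.

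Snora73a acts in cleavage of the rRNA precursor rather than as an ordinary guide. It was at 9.26, 8.58 and 9.26 in the controls, at 7.16, 8.43 and 7.87 in the eosinophilic group, at 9.16, 9.82 and 10.12 in the mixed group and at 10.49, 10.59 and 10.76 in the neutrophilic group, so eosinophilic values were the lowest and neutrophilic values the highest. The difference from control was 1.58 (SE 0.37, adjusted p = 0.048). Its near-identical neighbour Snora73b, with which it may share probe signal, gave 1.63 (adjusted p = 0.078) and missed the threshold. The other processing RNAs, Snord118 and Snord22, had differences of 1.98 (adjusted p = 0.21) and 1.02 (adjusted p = 0.15), with neutrophilic values above all controls in both.

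The direction was shared far beyond the called members. Of the 53, 52 had a positive difference against 53.7% of all genes, with a median of 1.16 against 0.05 for all genes and 0.29 for 300 micro RNA genes. The exception was the methylation guide Snord42b at -0.33 (adjusted p = 0.77). In 40 members all neutrophilic values exceeded all control values and in 0 they lay below, where 12.6% of all genes were above and 20.4% below in that way. The medians were 1.10 for box C/D RNAs and 1.25 for box H/ACA RNAs, with 4 of 31 and 4 of 20 called. Among bright members the median was 1.52, against -0.36 for all bright genes.

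The count of calls depended on single arrays more than the values did. With all other arrays kept, 0 members were called without control array 2 or without neutrophilic array 25, 1 without control array 1 or neutrophilic array 24, 3 without control array 3 and 7 without neutrophilic array 23, while the median difference stayed between 0.96 and 1.28. The same fits called 0.105%, 0.216%, 0.0853%, 0.421%, 0.787% and 1.83% of all genes in that order. Eosinophilic array 7 enters only through the shared spread. Without it 21 members rose, beside 2.24% of all genes called higher and 9.47% in either direction. Without all 3 arrays of low SD 36 members rose, beside 5.76% of all genes called higher and 16% in either direction, and the median was 1.19.

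**Figure D4:**
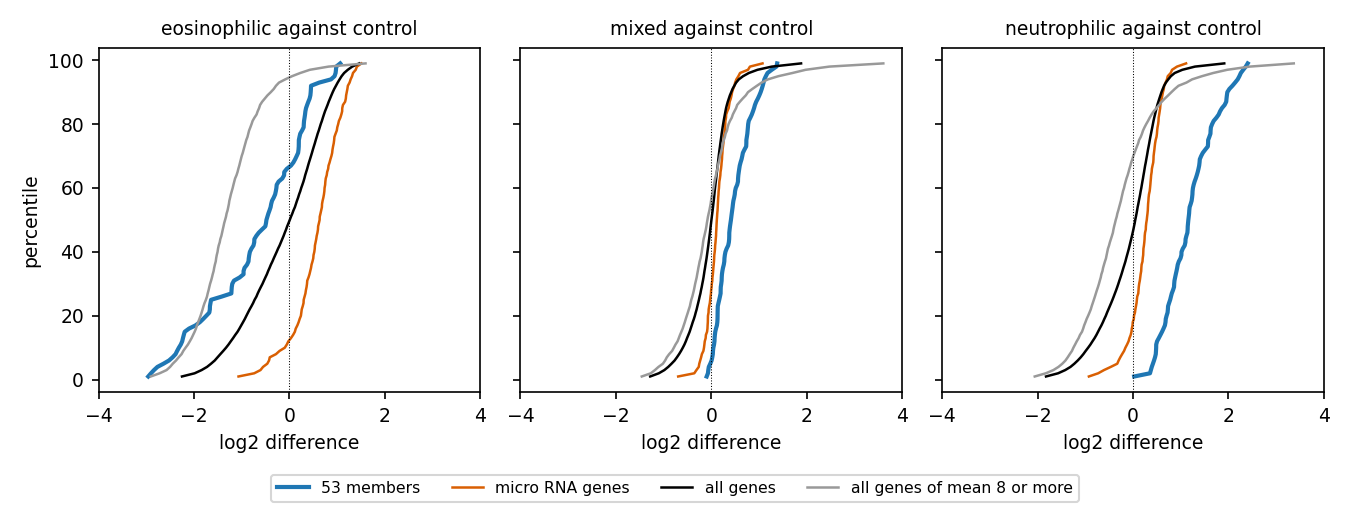
Percentiles of the log2 difference from control in the eosinophilic, mixed and neutrophilic groups, for 53 members (blue), micro RNA genes (orange), all genes (black) and all genes of mean 8 or more (grey). In the neutrophilic panel the blue line lies to the right of the others over most of its length, with medians of 1.16 for members and -0.36 for bright genes.

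In eosinophilic lungs the bright members were below control, as were most bright genes. A positive difference was seen in 0 of the 16 bright members and in 5.46% of all bright genes. The box C/D guide Snord15b was the 1 member called, and it fell, where 0.421% of all genes were called lower, 0.0752% higher and 0.497% in either direction. It was at 9.19, 8.51 and 9.10 in the controls, at 5.87, 7.88 and 6.05 in the eosinophilic group, at 9.09, 9.21 and 9.74 in the mixed group and at 10.32, 10.33 and 10.56 in the neutrophilic group. The eosinophilic values lay below all others, and array 8 was nearest to the controls. It fell by 2.33 on the log2 scale (SE 0.46, adjusted p = 0.048), a level 5.05-fold lower. Over the alternatives its difference stayed negative, but the call was lost in 10 of 15. Among these were arrays centred on their median, quantile normalization, array SD as a covariate and the 2 groups fitted alone. The call was also lost when control array 1, 2 or 3 or eosinophilic array 9 was left out. With 1 array left out the difference ran from -2.98 to -1.97. Without the 3 arrays of low SD it was -1.05, with 1 eosinophilic array remaining.

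Of the 53 members 18 had a positive difference in this group, 34% against 50.2% of all genes, and the median was -0.48 against 0.01. In 8 members the eosinophilic values lay below all controls and in 3 above, while 15.9% and 11.1% of all genes did so, so neither count stands above the background. The 8 were Snord15b, Snord49b, Snora7a, Snora23, Snora73a, Snora73b, Snora74a and Scarna17. Next to the threshold were the pseudouridylation guide Snora23, with a difference of -2.40 (adjusted p = 0.061), and the Cajal body RNA Scarna17, with -2.26 (adjusted p = 0.081). The bright members had a median of -2.06 and all bright genes -1.35, and both were nearer to 0 without eosinophilic array 7 (-1.17 and -0.40) and without the 3 arrays of low SD (-0.51 and 0.04, with eosinophilic array 8 alone remaining). Without eosinophilic array 8, which leaves arrays 7 and 9, 22 of 53 members were called, beside 41.5% of all genes, so that count is no higher than the background. On eosinophilic array 8 alone, whose SD was 1.95, 16 of 53 members lay below all controls and 6 above, beside 29.9% and 28.3% of all genes.

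A few abundant RNAs split within the eosinophilic group. Snord118, which acts in maturation of the large rRNA, was at 9.95, 9.02 and 9.92 in the controls and at 6.22, 6.50 and 9.61 in the eosinophilic group, so array 8 with its ordinary range was low and array 9 was not. Snora21, a pseudouridylation guide, was at 5.43, 9.28 and 3.53 there against 9.40, 8.56 and 9.33 in the controls, with array 8 among the controls. Snord57 was at 5.46, 11.06 and 11.53 against 11.08, 11.45 and 12.20, so that only array 7 was far off. None of these differences passed the test, with adjusted p of 0.12, 0.12 and 0.21. The second probe set of Snora21 did not show that large fall. It was at 5.26, 5.72 and 4.43 in the eosinophilic group against 6.05, 5.29 and 4.97 in the controls. Its difference was -0.30 (adjusted p = 0.65 in limma's test), against -3.02 for the probe set used.

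In the mixed group no member was called, where 0.471% of all genes were (0.326% higher), and 6 members had an unadjusted p under 0.05 in limma's test, against 7.95% of all genes. The differences were small and mostly positive, in 50 of 53 members with a median of 0.41 against 0.00 for all genes. In 13 members all mixed values exceeded all controls, against 9.16% of genes, and in 0 did they lie below, against 13.9%. Snora74a, a pseudouridylation guide, was at 6.68, 6.14 and 6.17 in the controls, at 5.83, 5.28 and 4.997 in the eosinophilic group, at 7.03, 7.78 and 8.29 in the mixed group and at 7.85, 8.38 and 8.28 in the neutrophilic group. Its mixed values overlapped the neutrophilic ones and lay above all controls, a difference of 1.37 (SE 0.36, adjusted p = 0.15). Snora44 at 1.39 (adjusted p = 0.22), Snord15a at 1.12 (adjusted p = 0.29) and Snora75 at 1.05 (adjusted p = 0.24) came next. Without eosinophilic array 7 in the fit Snora74a was called (adjusted p = 0.033, beside 2.99% of all genes), and without the 3 arrays of low SD 7 members were, beside 9.32% of all genes.

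Neutrophilic and mixed lungs differ in allergen dose along 1 route. No gene of the array, and so no member, passed the test between them, with 15 members and 618 genes (3.1%) at an unadjusted p under 0.05. The members' differences were positive in 51 of 53 cases with a median of 0.72 against 0.02 for all genes, and in 29 all neutrophilic values exceeded all mixed values, against 4.67% of genes, and in 0 did they lie below, against 9.37%. Snord82, a methylation guide, was at 9.40, 8.98 and 9.08 in the mixed group and at 11.40, 11.19 and 10.50 in the neutrophilic group, a difference of 1.88, and at 8.62, 8.73 and 9.84 in the controls. Snord87 differed by 1.37 and Snord49a by 1.38, each with no overlap between the groups. Without the 3 arrays of low SD, Snora3, Snord73b and Snord87 rose, beside 0.11% of all genes called higher and 0.266% in either direction.

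Across all 4 groups the F test called 12 of 53 members, where it called 0.883% of all genes, and 33 had an unadjusted p under 0.05, against 16.6% of all genes. The 12 were Snord15a, Snord15b, Snord35b, Snord55, Snord82, Snord87, Snora16a, Snora23, Snora44, Snora73a, Snora73b and Snora74a. Leaving out 1 array gave 0 calls for control array 2 or 3, beside 0.0401% and 0.0502% of all genes, and 32 for eosinophilic array 8, beside 26.3%. In 49 members the neutrophilic mean was the highest of the 4, against 16.7% of all genes, and in 35 the eosinophilic mean was the lowest, against 35.1%. The full order from eosinophilic through control and mixed to neutrophilic held in 33 members (62.3%) and in 4.7% of all genes. Among the 16 bright members the neutrophilic mean was highest in 16, against 16.8% of bright genes, the eosinophilic mean lowest in 16, against 91.5%, and the full order held in 15, against 11%. Snord15a, from the same gene as Snord15b, did not share its low eosinophilic values: it was at 5.82, 5.69 and 5.11 there and overlapped its controls.

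The positions in RefSeq put 53 members inside the span of another gene and Vaultrc5 and Snord118 inside none. The 46 host genes comprise 16 ribosomal protein genes, which hold 21 members, and 12 non-coding RNAs. Of them 26 were measured by a probe set of their own and hold 30 members. In the neutrophilic group the members of these pairs had a median difference of 1.06 and the hosts -0.24, and the member's difference was above its host's in 28 of 30 pairs. The member was also above its host in 22 of 30 pairs in the eosinophilic group and 22 of 30 in the mixed group. Most pairs thus had this order in each comparison with control, not in the neutrophilic group alone. Between neutrophilic and control lungs none of the 26 hosts passed limma's test with all 12 arrays. Without the 3 arrays of low SD 3 of the 26 hosts rose and 1 fell, beside 5.76% of all genes called higher and 10.2% lower. The difference between member and host was not tested, and a probe set inside an intron may also read the unspliced host transcript, whose part was not tested.

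Snord15a and Snord15b lie in Rps3, a ribosomal protein gene of the small subunit, which was at 10.36, 10.45 and 10.12 in the controls and at 9.83, 10.49 and 10.29 in the neutrophilic group. These groups overlapped, and the difference of Rps3 was -0.10 against 2.21 and 1.47 for the guides, though its sign turned with quantile normalization, with array SD as a covariate or without neutrophilic array 23 (0.05, 0.71 and 0.08). Snord82 and Snora75 lie in the gene of nucleolin, Ncl, a major nucleolar protein, which differed by -0.40 against 1.96 and 1.15, and turned to 0.17 with array SD as a covariate and to 0.15 without neutrophilic array 23. Snora33 lies in Rps12 at 0.54. Snord47 lies in Gas5, a non-coding host RNA, whose difference was 1.45 (adjusted p = 0.12, and 0.029 without eosinophilic array 7). Gas5 was at 8.63, 7.65 and 8.32 in the controls and at 9.39, 9.41 and 10.15 in the neutrophilic group, the nearest of the hosts of called members to its guide.

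**Figure D5:**
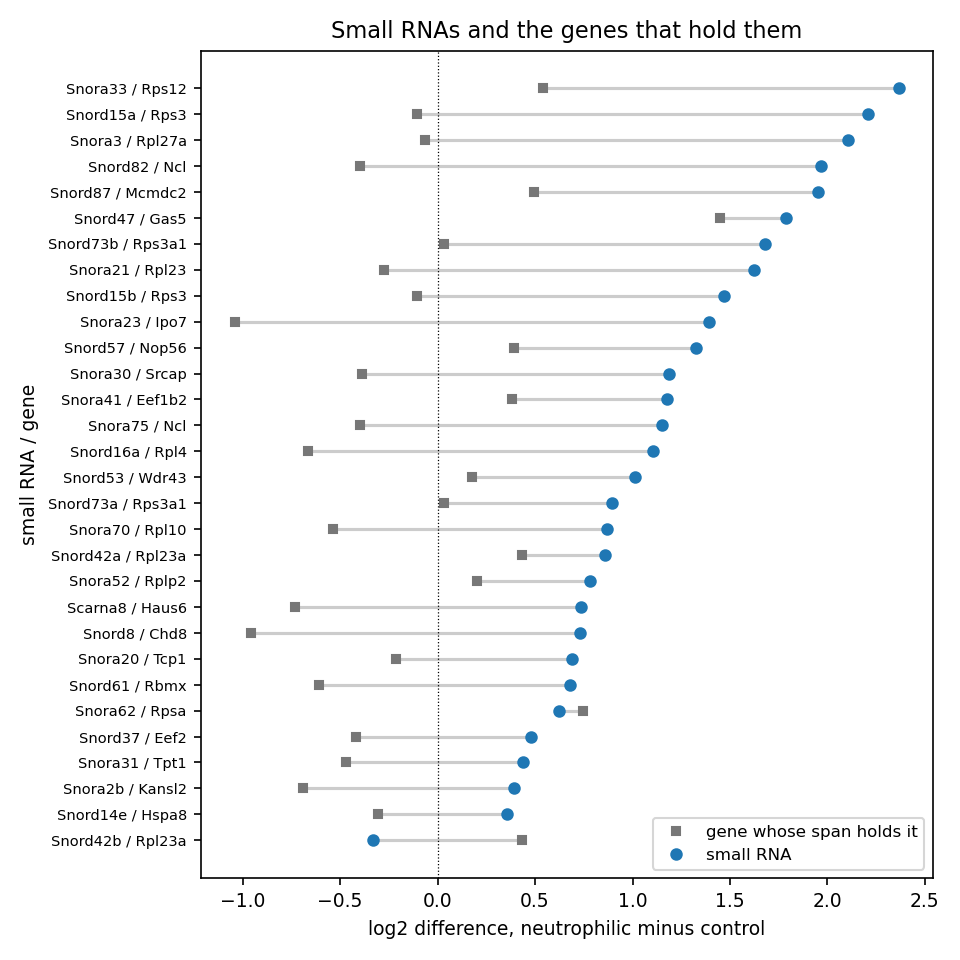
Log2 difference, neutrophilic minus control, of 30 small RNAs (blue points) and of the gene whose span holds each (grey squares), sorted by the small RNA. The blue point lies to the right of the square in 28 of 30 pairs, and the pair of Snord47 and Gas5 is among those where both are high.

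Several called members come from non-coding hosts that had no single-symbol probe set of their own: Snora44 from Snhg12, Snora73a from Snhg3, Snora74a from Snhg4 and Snord49a from 2410006H16Rik. Host genes of guide RNAs often start in a run of pyrimidines, and the letters CTTTC were searched in a window of 20 bases around each RefSeq start. They were found at 6 of 35 host starts (17.1%) and at 801 of all 32851 starts (2.44%), and the reverse strand's GAAAG at 2.86% and 2.23%. The starts of the hosts of 3 called members are shown with the match in capitals, and that of the Snora73a host, which has none in the window, for contrast. Each line has 50 bases before and 30 after the start, on GRCm38.p6, at chr1:161035116-161035195 (plus strand), chr4:132308628-132308707 (plus strand), chr11:62602827-62602906 (plus strand) and chr4:132353657-132353736 (minus strand) in order.
Gas5: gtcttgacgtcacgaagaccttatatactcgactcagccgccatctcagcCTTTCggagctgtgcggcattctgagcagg
Snhg12: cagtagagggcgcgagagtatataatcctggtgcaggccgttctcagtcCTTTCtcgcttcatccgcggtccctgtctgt
2410006H16Rik: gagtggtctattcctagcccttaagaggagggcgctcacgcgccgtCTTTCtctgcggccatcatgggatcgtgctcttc
Snhg3: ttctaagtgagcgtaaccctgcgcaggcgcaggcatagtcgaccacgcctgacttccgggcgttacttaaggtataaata
Members with and without these letters at their host start were among the 8 called, and another annotated start of Gas5 lacks them.

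Genes of the proteins that work with these RNAs did not pass the test in any comparison with all 12 arrays, and protein was not measured. Of the box C/D core proteins, the methylase fibrillarin (Fbl) differed by 0.24 between neutrophilic and control lungs, Nop56 by 0.39, Nop58 by 0.03 and Snu13 by 0.04, and the last 2 turned negative when an array was left out. Fbl was at 7.53, 7.71 and 7.12 in the controls and at 7.35, 7.78 and 7.96 in the neutrophilic group, with overlap. In the mixed group the differences of the same proteins from control were 0.63 for Fbl, 0.81 for Nop56, 1.29 for Nop58 and 0.65 for Snu13, with a median of 0.73 against 0.14 in the neutrophilic group. Nop58 was at 7.22, 7.03 and 7.48 in the mixed group and at 6.07, 5.88 and 5.90 in the controls, with no overlap (adjusted p = 0.32, and 0.00068 without the 3 arrays of low SD). Of the box H/ACA core proteins, the pseudouridine synthase dyskerin (Dkc1) differed by -0.32, Nhp2 by 0.50, Nop10 by 0.19 and Gar1 by 0.15. Without the 3 arrays of low SD Nhp2 rose, with differences of 0.89 (adjusted p = 0.014) in the neutrophilic and 0.86 (adjusted p = 0.013) in the mixed group. Of the vault proteins only the major vault protein, Mvp, had a probe set of its own. It was at 7.62, 7.59 and 7.55 in the controls and at 7.43, 8.46 and 8.91 in the neutrophilic group, a difference of 0.68 (adjusted p = 0.59), with array 23 below all controls. Mvp rose by 1.10 with array SD as a covariate (adjusted p = 0.0066) and by 1.10 without the 3 arrays of low SD (adjusted p = 0.0081).

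The lists of 12 assembly factors, 12 Cajal body and SMN proteins, 16 proteins of the small subunit processome and 7 of the exosome and RNA 3′ end had 0 calls in every comparison with all 12 arrays, with neutrophilic medians of -0.17, -0.16, -0.14 and -0.27. The 17 measured genes of RNA polymerase III, which makes vault RNA, and of its partners also had 0 calls and a median of -0.28. The partners, such as Maf1, include genes that do not themselves make RNA. Without eosinophilic array 7 in the fit, 3 of these 17 (Gtf3c1, Gtf3c3 and Maf1) and 1 of the 7 (Tent4b) fell in the neutrophilic group. In that fit 7.23% of all genes were called lower. Without the 3 arrays of low SD the RNAs of 5 of the 16 processome proteins rose in the mixed group, beside 3.59% of all genes called higher. The 9 measured of 23 non-coding host genes had a neutrophilic median of 0.59 and 0 calls with all 12 arrays. That count was 1 without eosinophilic array 7, with quantile normalization or with the 2 groups fitted alone. It was 2 with array SD as a covariate, and 4 without the 3 arrays of low SD. All of these rose. The same fits called 9.47%, 1.24%, 10.7%, 11% and 16% of all genes in either direction. Called higher were 2.24% without eosinophilic array 7 and 5.76% without the 3 arrays of low SD.

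Other short structured RNAs were nearer to the members. Of 11 such RNAs 2 rose in the neutrophilic group and 0 fell, beside 0.662% and 1.45% of all genes, with a median of 0.91. The count of 2 became 3 without eosinophilic array 7, 4 with the 2 groups fitted alone, 5 with array SD as a covariate and 7 without the 3 arrays of low SD. Those fits called 9.47%, 10.7%, 11% and 16% of all genes in either direction. Called higher were 2.24% without eosinophilic array 7 and 5.76% without the 3 arrays of low SD. Rnu12, a spliceosomal RNA of the minor spliceosome, was at 5.88, 5.62 and 6.17 in the controls and at 7.25, 7.17 and 7.39 in the neutrophilic group, a difference of 1.38 (adjusted p = 0.031). Rny1, a Y RNA made by RNA polymerase III, was at 7.32, 6.28 and 7.31 and at 9.31, 8.83 and 8.60, a difference of 1.94 (adjusted p = 0.044). Neither overlapped its controls, but both calls were lost in 7 of 16 alternatives, namely quantile normalization and each fit with 1 control or neutrophilic array left out, with adjusted p up to 0.18 for Rnu12 and 0.22 for Rny1. Rnu3a, the box C/D RNA that directs early cleavage of the rRNA precursor and carries another symbol than the members, differed by 1.77 (adjusted p = 0.14), with array 23 at 5.99 near its controls and arrays 24 and 25 at 8.04 and 7.97. Second probe sets of Snora3 and Snora21 gave differences of 1.45 and 0.92 against 2.10 and 1.62 for those used, none past the threshold.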

How the data were processed

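Whole-lung total RNA, isolated with RNeasy Mini columns and labelled from 300 ng, was measured on Affymetrix arrays. The authors' deposited values are log2 intensities of 34760 probe sets, for which the submitters' processing notes name RMA and the Affymetrix Expression Console. Silica columns of this kind recover RNA under about 200 bases incompletely, and 51 of the 55 members are shorter in RefSeq (GRCm38.p6), so the levels are comparable between arrays only as far as recovery was alike, which was not tested. The genome build of the array annotation is not given in the sources used here.

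Platform symbols named 21640 probe sets with 1 symbol, 1321 had several and 11799 none, and the probe set of highest mean stood for each gene. All 55 members matched RefSeq by Entrez ID. Another 22 probe sets that name the class beside another symbol were not members.

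Group means of all 12 arrays were fitted with limma 3.58.1 in R 4.3.3 (lmFit, eBayes), with 4 contrasts and an F test, Benjamini-Hochberg adjustment over 19937 genes, and a threshold of 0.05. On simulated data for neutrophilic against control with 19937 genes, 1 of 50 genes changed by 1 on the log2 scale was recovered, 33 of 50 changed by 2, and 48 of 50 each by 3 and 4, with 10 false calls, so small changes pass rarely. The number of arrays limits the precision. Figures used matplotlib 3.10.9.

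Members and gene lists were chosen with earlier results of these data known. Named were, by a fixed rule, members past the threshold, those of smallest p and largest difference, those farthest off on eosinophilic array 7, processing RNAs, hosts and list genes. Hosts are RefSeq genes whose span holds a member, and the strand of a member relative to its host was not used for every pair.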

Additional observations from a re-analysis of the deposited data

Results flagged for a closer look

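In 6 members every eosinophilic array lay below every control array and every neutrophilic array above it, as in 38 of all 19937 genes (0.191%). They are given because the 2 treatments moved in opposite directions from control; the difference between these treatments was not tested on its own. The gap between the neutrophilic and eosinophilic means was 3.80 on the log2 scale for Snord15b, 3.79 for Snora23, 3.27 for Snora73b, 3.18 for Snora7a, 2.81 for Snora74a and 2.79 for Snora73a. Both groups are set against the same 3 controls, and eosinophilic arrays 7 and 9 had a narrow range of values.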

How the results depend on the processing

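The median difference of the members kept its sign under every alternative run: -0.84 to -0.22 in the eosinophilic group, 0.17 to 0.61 in the mixed group, 0.96 to 1.32 in the neutrophilic group and 0.62 to 0.78 between neutrophilic and mixed. The counts of calls did not hold. Against control, the eosinophilic count of 1 became 2 with either filter on dim genes (1.77% and 2.01% of the genes kept). It was 0 with arrays centred on their median (0.0702% of all genes), quantile normalization (0.256%), array SD as a covariate (1.77%) or the 2 groups fitted alone (0%). With 1 array left out it ran from 0 to 22, where 0.00502% to 41.5% of all genes were called. The fit without the 3 arrays of low SD leaves 1 eosinophilic array, so its eosinophilic count is not given. The mixed count of 0 became 3 with array SD as a covariate (5.39% of all genes), 1 without eosinophilic array 7 (2.99%), and 7 without the 3 arrays (9.32%) or with the groups fitted alone (8.47%). The neutrophilic count of 8 became 25 with array SD as a covariate (11%), 21 without eosinophilic array 7 (9.47%), 36 without the 3 arrays (16%), 24 with the groups fitted alone (10.7%), and 0 to 7 with 1 array left out (0.0853% to 1.83% of all genes). Between neutrophilic and mixed, 0 became 3 without the 3 arrays. The F test's 12, beside 0.883% of all genes, became 27 with array SD as a covariate (7.04%), 29 without the 3 arrays (12.7%), and 0 to 32 with 1 array left out (0.0401% to 26.3%). The cause of these shifts was not tested. Signs turned 16 times, all for genes that were not called. Without the 3 arrays, or without neutrophilic array 23 alone, the neutrophilic differences of Snord42b, Rps3 and Ncl turned to 0.018, 0.083 and 0.15. Array SD as a covariate turned Rps3 to 0.71 and Ncl to 0.17, and quantile normalization turned Rps3 to 0.047 and Nop58 to -0.039. With 1 array left out Nop58 ran from -0.22 to 0.50, Snu13 from -0.17 to 0.19, Snord42b from -0.67 to 0.018, Rps3 from -0.25 to 0.083 and Ncl from -0.75 to 0.15. In the eosinophilic group Snora21 turned to 0.18 without the 3 arrays and Snord96a to -0.24 with quantile normalization. Quantile normalization moved the lower calls over all genes in the neutrophilic group from 289 to 113, beside 132 and 135 higher. No paired analysis was possible because the groups share no sample numbers. Signal over background was not given, so no member was tested for detection.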
